A study of Mus musculus with 13 samples.

Results

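The unfolded protein response and the folding machinery of the endoplasmic reticulum (ER) were followed through 35 genes in epithelial cells sorted from the mouse jejunum, in libraries from mice kept on different daily feeding windows. The genes were taken by symbol from a list of this pathway. The rule itself uses no measured value, but the list was chosen with earlier results of these data known. All 35 were present in the table of 21868 genes, and 35 of 35 passed the filter on low counts that left 14300 genes for testing. They comprised 6 stress sensors and factors downstream of them, 7 genes of BiP and its partners, 3 of Hsp90 and secreted ER factors, 7 lectin chaperones and disulfide enzymes, 9 of ER-associated degradation and 3 of the translocon, the channel through which new proteins enter the ER.

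As background, proteins bound for membranes, mucus, lipoproteins or secretion are threaded into the ER, folded there by chaperones and joined by disulfide bonds, and those that fail are drawn back out and degraded. When unfolded proteins accumulate, the sensors IRE1, PERK and ATF6 send signals to the nucleus and the ribosome, which raise the output of chaperone genes and slow translation. In the gut, this system is known for the secretory load of Paneth and goblet cells, and the enterocyte uses the same compartment to build lipoproteins from absorbed fat.

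The mice shared an environment and cage, and the feeding windows were held for 2 weeks, per the series' design text. Times are zeitgeber hours (ZT), counted from lights on. Breakfast skipping (BSF, 2 libraries) allowed food from ZT16 to ZT24, lunch skipping (LSF, 3 libraries) from ZT12 to ZT16 and again from ZT20 to ZT24, and dinner skipping (DSF, 2 libraries) from ZT12 to ZT20. A control group (con, 3 libraries) and a group that the labels call breakfast skipping combined with control (BSF_C, 3 libraries) have no feeding times in the sources used here, nor are strain, age, sex and the hour of sampling given. Epithelial cells carrying EpCAM had been separated from leukocytes (CD45, CD11b, CD3 or B220) by flow cytometry, and polyadenylated RNA was sequenced. Libraries of a group are labelled as biological replicates, and nothing says whether each came from 1 animal, so the tests rest on the spread among these libraries, which may be technical.

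Library totals ran from 4851239 to 5202146 counts in con and from 7127769 to 8589351 in the other groups, and the biological coefficient of variation was 6.2% for the median gene. The con libraries stood apart. Over genes, the chi-square per degree of freedom (about 1 where libraries differ by counting error) ran from 54.6 to 78.8 when a con library was set against one of another group, from 1.38 to 3.95 within a group, and from 1.63 to 12.8 between the other groups. Epcam, the surface protein used to sort, averaged 193 CPM in con and 322 to 375 CPM in the other groups, and Ptprc, which encodes CD45, averaged 0.139 CPM in con and 13.8 to 18.7 CPM elsewhere. CPM is the depth-scaled count of a gene, with library totals scaled by trimmed means. No batch is labelled, and if the con libraries were a batch of their own, that batch and the control group cannot be told apart.

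Sequence upstream of these genes is shown because stress-responsive ER genes share a known promoter motif. The ER stress response element (ERSE), to which NF-Y and ATF6 or XBP1 bind, was searched as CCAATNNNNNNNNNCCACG, and the shorter ERSE-II as ATTGG and CCACG with 1 base between them, on both strands from 250 bases before to 50 bases after the start of transcription (RefSeq, GRCm38.p6). A window was found for 27 of the 35 genes, and Manf, Hyou1, Atf6, Ern2, Derl1, Sec61a1, Ero1lb and Sil1 had none. ERSE was present in 9 of 27 genes (33.3%) and in 37 of 27025 genes with a window (0.137%). ERSE-II was present in 2 of 27 (7.41%), against 12 of 27025 (0.0444%). Both motifs end in CCACG, and no gene of the 27 held both. The matches read as follows, 5′ to 3′ on the strand that carries the motif, with its fixed bases in capitals and 4 flanking bases on each side.
Hspa5: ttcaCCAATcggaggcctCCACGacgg
Hsp90b1, sense: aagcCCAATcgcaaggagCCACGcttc
Hsp90b1, antisense: ctcaCCAATcgtgcctcaCCACGcact
Calr, antisense: tgggCCAATgagggtcgaCCACGcgtt
Canx: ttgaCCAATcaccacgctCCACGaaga
Pdia6: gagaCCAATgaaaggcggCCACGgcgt
Dnajc3: acaaCCAATcagcgccaaCCACGaccc
Creld2, antisense: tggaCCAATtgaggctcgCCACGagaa
Syvn1: gcaaCCAATcggcggtagCCACGggaa
Derl3, antisense: ctagCCAATggggaagtcCCACGgtag
Herpud1, ERSE-II: gctgATTGGgCCACGttgg
Dnajb11, ERSE-II: ggcgATTGGcCCACGcctg

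The motif lay 65 to 47 bases before the start in Hspa5, 162 to 144 before it in Calr and 145 to 127 before it in Canx. In Dnajb11 it lay at bases 8 to 18 of the transcript itself. Dnajc3 and Herpud1, which carry different elements and moved in opposite directions in the lunch-skipping libraries described further on, are shown with the 250 bases before the start. The Dnajc3 window is chr14:118937682-118937931 on the plus strand.
Dnajc3: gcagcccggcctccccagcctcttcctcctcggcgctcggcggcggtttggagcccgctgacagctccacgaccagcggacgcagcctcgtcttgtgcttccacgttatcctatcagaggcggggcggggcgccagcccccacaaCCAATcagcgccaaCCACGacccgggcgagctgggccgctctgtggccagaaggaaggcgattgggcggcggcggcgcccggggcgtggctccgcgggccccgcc
The Herpud1 window is chr8:94386179-94386428 on the plus strand.
Herpud1: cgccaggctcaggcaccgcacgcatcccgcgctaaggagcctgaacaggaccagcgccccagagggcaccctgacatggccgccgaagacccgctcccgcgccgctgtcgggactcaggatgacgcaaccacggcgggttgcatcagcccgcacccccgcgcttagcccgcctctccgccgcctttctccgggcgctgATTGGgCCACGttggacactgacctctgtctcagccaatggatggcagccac
A match describes the letters only, and no match says nothing about a factor's binding.

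Levels differed widely between the genes. Per kilobase of exon, P4hb, which encodes protein disulfide isomerase and also serves as the small subunit of the triglyceride transfer protein that loads lipoproteins, was the highest of the 35, at a mean of 700.2 CPM per kilobase in con and 976.9 over the other 10 libraries. Calr, the lectin chaperone calreticulin, was next at 282.4 and 300.4 CPM per kilobase. The transcription factor gene Xbp1 (187.6) and the gene of the chaperone BiP, Hspa5 (164.8), followed in con, and Hspa5 (236.8) then Xbp1 (104.7) in the other libraries. The sensor genes were low on the same scale: in con Ern1 averaged 19.46, Atf6 11.73 and Eif2ak3 5.063 CPM per kilobase. Derl3, a derlin, was the lowest at 0.3233 and 0.3658, with 1 to 13 counts in a library, too few for a firm statement on its changes. Together the 35 genes took 0.768% to 0.798% of all counts in con, 0.88% to 0.906% in BSF and BSF_C, 0.785% to 0.793% in LSF and 0.811% to 0.825% in DSF.

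**Figure D1:**
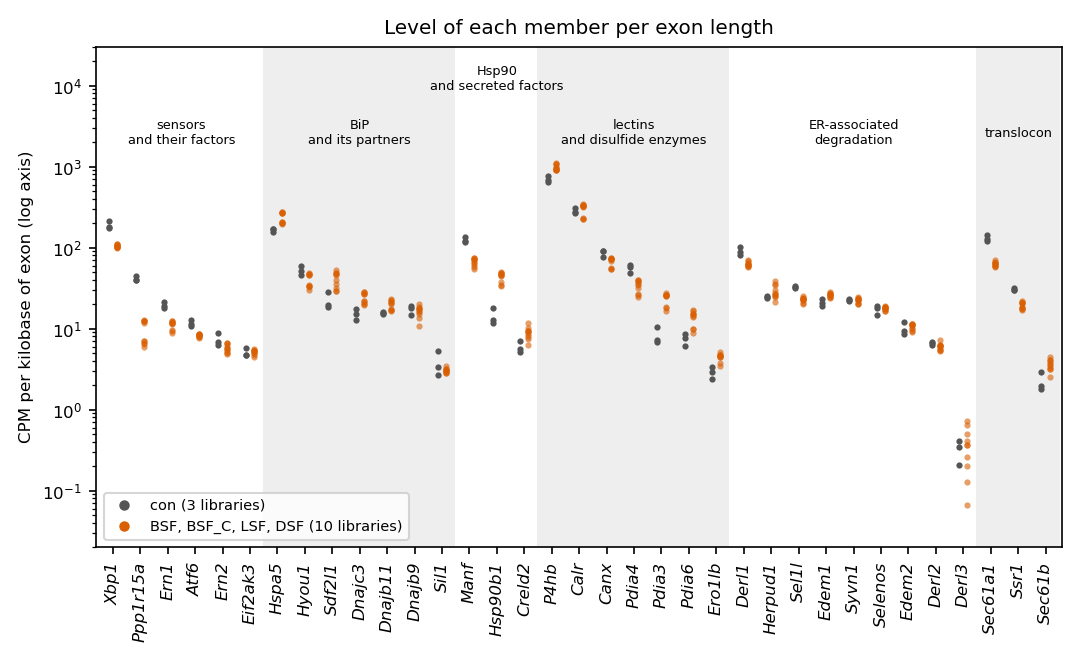
Level of each of the 35 genes in every library, as CPM per kilobase of exon on a log axis, grouped by role and sorted within a role. Grey points are the 3 con libraries and orange points the 10 others; P4hb is the highest gene at 700.2 (con) and 976.9 (other libraries) on average and Derl3 the lowest.

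None of the 35 genes was called between BSF_C, whose feeding times are not given, and BSF. The count was 0 of 35 at an adjusted p under 0.05, where 0.133% of all genes tested were called (0.105% higher, 0.02797% lower). Of the 35, 0 reached an unadjusted p under 0.05 in edgeR's quasi-likelihood test, nor did any by DESeq2 or limma-voom. Their median log2 fold change was 0.022, beside 0.005 over all genes. The 95% interval of the difference ran from -0.116 to 0.087 for Hspa5, the BiP gene, and from -0.117 to 0.542 for the less abundant Creld2.

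In LSF, ER chaperones fell against BSF across several roles. Of the 35 genes, 14 were lower and 4 higher, where 29.3% of all genes tested were called (13.4% lower, 15.9% higher). Lower were BiP (Hspa5), calreticulin, calnexin, 3 protein disulfide isomerases, GRP94 (Hsp90b1) and the BiP partners Hyou1, Dnajc3, Dnajb11 and Sdf2l1, with Manf, the sensor gene Ern1 and Ssr1. Higher were Ppp1r15a, which encodes the GADD34 subunit that ends the PERK signal, the degradation genes Herpud1 and Derl1, and P4hb. The median of the 35 was -0.127, beside -0.008 over all genes tested. Of the 18 calls, 16 were kept whichever library was left out. Dnajb11 was lost without BSF replicate 1 (-0.28, adjusted p = 0.053) and Derl1 without any 1 of BSF replicates 1 and 2 and LSF replicates 1 and 3 (0.17 to 0.22, adjusted p = 0.0523 to 0.195).

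DSF against BSF gave fewer calls. Hspa5, Hyou1, Dnajc3, Dnajb9, Sel1l and Ssr1 were lower and Ppp1r15a was higher, 7 of 35 genes, where 12.03% of all genes tested were called (5.77% lower, 6.26% higher). The median was -0.151, beside 0.001 over all genes. This count depended on the libraries and on the fit: leaving out 1 library gave 2 to 4 lower genes, con left out of the fit gave 13, and libraries thinned to a common total gave 3. Hspa5, Hyou1 and Ppp1r15a were called in each of those fits. Dnajb9, Dnajc3, Sel1l and Ssr1 were not called without BSF replicate 1 (adjusted p = 0.253, 0.0571, 0.2 and 0.14). Sel1l was lost as well without BSF replicate 2 or either DSF library, Ssr1 without either DSF library, and Dnajb9 without BSF replicate 2 or the DSF library marked S3 (adjusted p from 0.0622 to 0.459).

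DSF and LSF differed in all 7 lectin chaperones and disulfide enzymes and in 7 genes of other roles. Of the 35 genes, 9 were higher in DSF and 5 lower, where 15.9% of all genes tested were called (6.91% higher, 8.97% lower). Higher were Calr, Canx, Pdia3, Pdia4, Pdia6, Hsp90b1, Sdf2l1, Manf and Ern1, and lower were P4hb, Ero1lb, Dnajb9, Herpud1 and Sel1l. The median was -0.002, beside 0 over all genes. Leaving out 1 library kept 9 of the 14. Pdia4 was lost without the DSF library S3 (adjusted p = 0.0833), Ero1lb without the DSF library S2 (0.154), Sdf2l1 without S2 or LSF replicate 2 or 3 (0.0726 to 0.358), Sel1l without S2, S3 or LSF replicate 1 (0.052 to 0.185), and Manf without S2, S3 or LSF replicate 2 or 3 (0.0957 to 0.286). LSF enters this comparison and that with BSF, and BSF enters both of the others, so their values are set side by side below and not counted together.

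**Figure D2:**
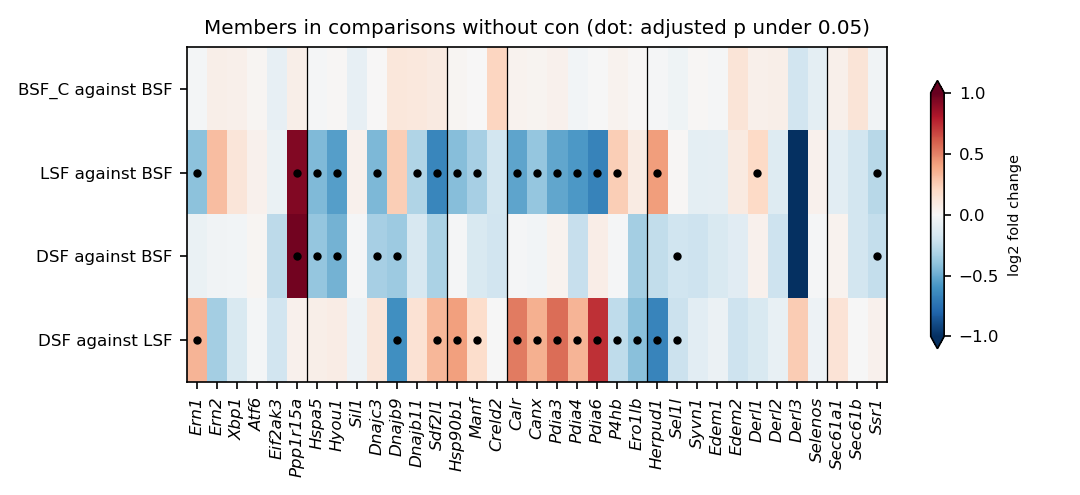
Log2 fold changes (colour) of the 35 genes in the 4 comparisons that do not involve con, ordered by role, with a dot where the adjusted p is under 0.05. The BSF_C row holds no dot, the LSF against BSF row 18 and the DSF against BSF row 7; colours beyond 1 in either direction are capped.

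Of the 7 genes of BiP and its partners, 5 were called lower in LSF and 4 in DSF against BSF, with medians of -0.442 and -0.332, and 0 were called higher. Over all genes tested, 13.4% were lower and 15.9% higher in LSF, and 5.77% and 6.26% in DSF. Hspa5 encodes BiP, the ER Hsp70 that binds unfolded chains and keeps the stress sensors idle, and it stood at 1160 and 1139 CPM in BSF, 841, 837 and 862 in LSF, 877 and 886 in DSF, 1123, 1130 and 1160 in BSF_C, and 709.8, 717 and 664 in con. The 5 libraries of BSF and BSF_C were the highest, con the lowest, and LSF and DSF lay between with no overlap with either. Against BSF, Hspa5 fell by 0.44 ± 0.051 (log2 fold change ± SE, adjusted p = 5.14e-10) in LSF and by 0.38 ± 0.056 (adjusted p = 7.46e-07) in DSF. DSF and LSF did not differ at the threshold (0.0585, 95% interval -0.044 to 0.161). In bulk RNA, fewer cells of a type and less RNA per cell cannot be told apart, and this holds for every difference given here.

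Hyou1, the exchange factor that resets BiP after each binding cycle, stood at 339 and 335 CPM in BSF, 244, 216 and 233 in LSF, 247 and 239.9 in DSF, 352, 331 and 338 in BSF_C, and 373, 336 and 425 in con. LSF and DSF were below every other library. It fell by 0.55 ± 0.065 (adjusted p = 1.67e-09) in LSF and by 0.47 ± 0.072 (adjusted p = 2.17e-06) in DSF against BSF. Dnajc3, a J-domain partner of BiP also known as p58IPK, stood at 145 and 138 CPM in BSF, 101, 106 and 105 in LSF, 113 and 112 in DSF, 143, 139 and 144 in BSF_C, and 76.8, 89 and 66.6 in con. Its order was that of Hspa5, with changes against BSF of -0.45 ± 0.071 (adjusted p = 1.38e-06) in LSF and -0.33 ± 0.078 (adjusted p = 0.00201) in DSF.

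Sdf2l1, part of the complex of BiP with the J-domain protein ERdj3, stood at 53.7 and 50.6 CPM in BSF, 34.8, 32.2 and 32.6 in LSF, 44.6 and 39.2 in DSF, 54, 58.9 and 52.9 in BSF_C, and 21.5, 20.4 and 31.6 in con. The groups other than BSF and BSF_C did not overlap, with DSF between LSF and the BSF and BSF_C libraries. It fell by 0.65 ± 0.10 (adjusted p = 1.8e-06) in LSF against BSF, and DSF lay 0.34 above LSF (adjusted p = 0.0241). Its value in DSF against BSF, -0.31, missed the threshold (adjusted p = 0.0552). That value passed by voom, with library totals alone, no filter or only the groups compared (adjusted p = 0.0099 to 0.0472). It also passed with con left out of the fit, GC and length trends removed or BSF_C in place of BSF (0.00448 to 0.0112). Dnajb11, ERdj3 itself, was at 68.4 and 66.5 CPM in BSF, 54.7, 56.7 and 52.6 in LSF, 55.3 and 65.7 in DSF, 74.1, 71.5 and 72.4 in BSF_C, and 49.97, 49.7 and 52.5 in con. It was lower in LSF than in BSF (-0.30 ± 0.083, adjusted p = 0.00415), and the DSF libraries lay apart from each other, one of them among the LSF values.

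Dnajb9 (ERdj4), a J-domain protein that helps BiP bind and silence IRE1, went another way. It stood at 42.3 and 38.3 CPM in BSF, 43.9, 51.5 and 47.7 in LSF, 34.9 and 27.6 in DSF, 44, 45.4 and 41 in BSF_C, and 48.5, 45.7 and 37.5 in con. The DSF libraries were the lowest of all 13, and LSF lay above BSF without overlap and overlapped con. The value of LSF against BSF, 0.25, missed the threshold (adjusted p = 0.0621) and passed it with only the groups compared (0.0224), con left out of the fit (0.027), a replicate block (0.0358), GC and length trends removed (0.00353) or LSF replicate 1 left out (0.0391). DSF was lower than LSF (-0.61 ± 0.11, adjusted p = 1.8e-05) and than BSF (-0.36 ± 0.12, adjusted p = 0.0345). Sil1, the other exchange factor of BiP, passed no threshold in comparisons without con and ranged from 9.6 to 11.7 CPM in the 10 libraries outside con.

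Among ER Hsp90 and secreted factors, Hsp90b1 encodes GRP94, the Hsp90 of the ER. Its level was 178 and 201 CPM in BSF, 136, 138 and 150.3 in LSF, 189 and 187 in DSF, 187, 198 and 194 in BSF_C, and 51.4, 71.7 and 47.5 in con. DSF lay among the BSF and BSF_C libraries, LSF below them and con far below all. It fell by 0.43 ± 0.075 (adjusted p = 1.17e-05) in LSF against BSF, was 0.41 ± 0.076 higher in DSF than in LSF (adjusted p = 3.58e-05), and differed between DSF and BSF by -0.0152 (95% interval -0.179 to 0.148). Exons of Hsp90b1 overlap other annotated genes over 217 bases on the same strand and 415 on the opposite strand, and the strand setting of the counting is not given in the sources used here.

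Manf, a small ER protein released under calcium loss or stress, stood at 264 and 248 CPM in BSF, 214, 206 and 190.2 in LSF, 233 and 227 in DSF, 252, 259 and 258 in BSF_C, and 424, 410.0 and 479 in con. Con was the highest here, and LSF the lowest. It fell by 0.33 ± 0.064 (adjusted p = 5.1e-05) in LSF against BSF. Creld2, a secreted stress-induced factor, ranged from 8.64 to 15.9 CPM outside con and passed no threshold in these comparisons.

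**Figure D3:**
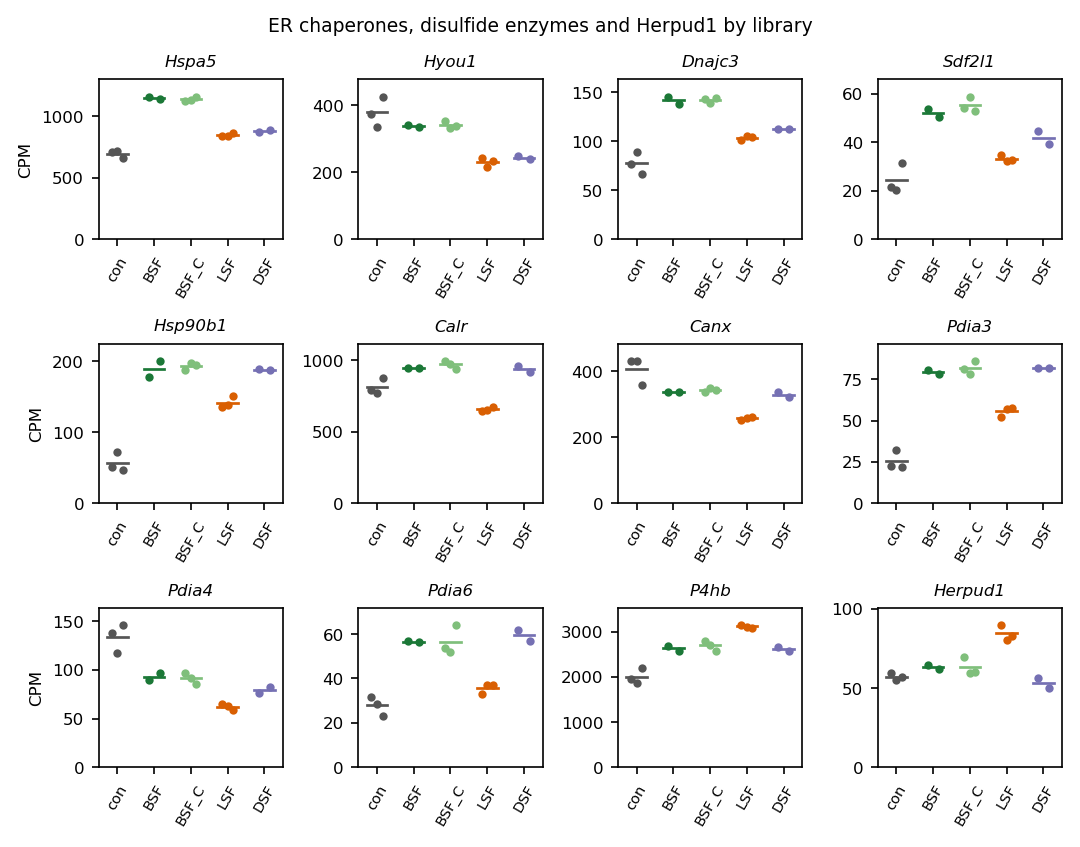
CPM of 12 chaperone, disulfide and degradation genes in every library (points) with the group mean (line), for con, BSF, BSF_C, LSF and DSF, each axis starting at 0. Hspa5, Hyou1 and Dnajc3 are low in LSF and DSF against BSF, Calr, Canx, Pdia3 and Pdia6 are low in LSF but not in DSF, and P4hb and Herpud1 are highest in LSF.

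Of the 7 lectin chaperones and disulfide enzymes, 5 fell and 1 rose in LSF against BSF, with a median of -0.519, and 0 were called in DSF against BSF, with a median of -0.01. All genes tested gave 13.4% lower and 15.9% higher in LSF, and 12.03% called in DSF. Calr encodes calreticulin and Canx calnexin, which hold glycoproteins through their trimmed sugars until they fold. Calr stood at 943 and 948 CPM in BSF, 645, 652 and 671 in LSF, 963 and 916 in DSF, 998, 974 and 942 in BSF_C, and 792, 771 and 877 in con. The LSF libraries were the lowest of all 13, below con as well, and DSF overlapped the BSF and BSF_C libraries, above con. Calr fell by 0.53 ± 0.054 (adjusted p = 1.63e-11) in LSF against BSF, was 0.52 ± 0.054 higher in DSF than in LSF (adjusted p = 3.04e-11), and differed between DSF and BSF by -0.0094 (95% interval -0.128 to 0.109).

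Canx stood at 336 and 336 CPM in BSF, 253, 257 and 262 in LSF, 337 and 321 in DSF, 337, 348 and 344 in BSF_C, and 432, 431 and 358 in con. LSF was again the lowest, with no overlap, while con was the highest. The change of LSF against BSF was -0.39 ± 0.062 (adjusted p = 2.02e-06), that of DSF against LSF 0.36 ± 0.062 (adjusted p = 1.49e-05), and that of DSF against BSF -0.03 (95% interval -0.166 to 0.106).

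Pdia3 (ERp57) makes disulfide bonds in proteins held by these lectins. It stood at 80.9 and 78.2 CPM in BSF, 52.1, 56.9 and 57.5 in LSF, 81.7 and 81.7 in DSF, 81.2, 78.4 and 86.3 in BSF_C, and 22.5, 32.4 and 21.7 in con. Pdia6, a further isomerase, stood at 56.9 and 56.4 CPM in BSF, 33, 37.3 and 37.1 in LSF, 62.1 and 56.7 in DSF, 53.6, 51.9 and 64.3 in BSF_C, and 31.8, 28.7 and 23 in con. In both genes DSF sat at the level of BSF and BSF_C and LSF below it, close to con in Pdia6. Against BSF, LSF fell by 0.52 ± 0.087 in Pdia3 (adjusted p = 4.72e-06) and by 0.67 ± 0.10 in Pdia6 (adjusted p = 4.69e-07). DSF was higher than LSF by 0.56 in Pdia3 (adjusted p = 1.63e-06) and by 0.73 in Pdia6 (adjusted p = 6.61e-08).

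Pdia4 (ERp72) stood at 89.2 and 96.6 CPM in BSF, 64.9, 63 and 59.3 in LSF, 76.1 and 82.3 in DSF, 96.5, 91.7 and 85.7 in BSF_C, and 138, 117 and 146 in con. Con was the highest group and LSF the lowest, with DSF between LSF and BSF. LSF fell by 0.58 ± 0.081 against BSF (adjusted p = 1.06e-07). The change of DSF against BSF, -0.23, missed the threshold (adjusted p = 0.0713). It passed with library totals alone (adjusted p = 0.0399), only the groups compared (0.00941) or con left out of the fit (0.0157).

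P4hb, the most abundant of the 35, moved against the other isomerases. Its level was 2688 and 2580 CPM in BSF, 3156, 3102 and 3091 in LSF, 2662 and 2569 in DSF, 2804, 2716 and 2582 in BSF_C, and 1956, 1855 and 2199 in con. LSF was the highest group without overlap. It was 0.24 ± 0.053 higher in LSF than in BSF (adjusted p = 0.000291) and lower in DSF than in LSF (-0.25, adjusted p = 0.00025). Ero1lb, an oxidase that supplies the isomerases with disulfides, stood at 31.4 and 29.3 CPM in BSF, 30.7, 31.6 and 33.8 in LSF, 22.8 and 25.1 in DSF, 30.6, 31.1 and 30.0 in BSF_C, and 15.7, 19.3 and 22.6 in con. DSF was the lowest group outside con, at -0.42 ± 0.12 against LSF (adjusted p = 0.00723).

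Of the 9 degradation genes, 2 were called higher and 0 lower in LSF than in BSF, where 15.9% of all genes tested were higher and 13.4% lower. Derl3, at a mean of 0.371 CPM in LSF and 1.13 in BSF, missed the threshold (-1.56, adjusted p = 0.0536) and was called lower by voom (adjusted p = 0.0241), with library totals alone (0.0382), con left out (0.0445), GC and length trends removed (0.0425) and LSF replicate 1 left out (0.0195). With library totals alone, Edem1 (-0.165) and Syvn1 (-0.177) were called lower as well. Herpud1 anchors the ubiquitin ligase complex that clears misfolded ER proteins. It stood at 64.5 and 62.3 CPM in BSF, 90.05, 80.3 and 83.1 in LSF, 56.6 and 50.3 in DSF, 69.5, 59.6 and 59.9 in BSF_C, and 59.5, 55.3 and 56.9 in con. LSF stood above all other libraries, and DSF overlapped con. Herpud1 was higher in LSF than in BSF by 0.42 ± 0.082 (adjusted p = 8.15e-05) and lower in DSF than in LSF (-0.66 ± 0.085, adjusted p = 1.78e-08).

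Derl1, a derlin of the exit channel, stood at 200.3 and 192 CPM in BSF, 232, 218 and 225 in LSF, 208 and 196 in DSF, 205, 207 and 199 in BSF_C, and 295, 272 and 339 in con. Sel1l, the adaptor of the ligase Syvn1 (HRD1), stood at 205 and 200.1 CPM in BSF, 213, 202 and 195 in LSF, 172 and 179.6 in DSF, 192, 199 and 199 in BSF_C, and 277, 287 and 275 in con. Con was the highest group in both genes, and DSF the lowest in Sel1l. Derl1 was 0.20 ± 0.066 higher in LSF than in BSF (adjusted p = 0.0207). Sel1l was lower in DSF, by -0.20 ± 0.067 against BSF (adjusted p = 0.0375) and -0.21 ± 0.062 against LSF (adjusted p = 0.0114). Syvn1, Edem1 and Edem2, Derl2, Derl3 and Selenos, which extract, mark or hand over the substrates, passed no threshold without con, with changes from -0.21 to 0.13 apart from the sparsely counted Derl3.

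Among the 6 sensors and factors downstream of them, Ern1 and Ppp1r15a passed the threshold without con in the main fit. Xbp1 passed it only under alternatives, given below. Ern1 encodes IRE1α, the sensor that splices Xbp1 mRNA, and stood at 102 and 97.2 CPM in BSF, 71.2, 78.2 and 76 in LSF, 95.9 and 94.2 in DSF, 101, 96.9 and 98.3 in BSF_C, and 157, 148 and 172 in con. LSF was the lowest group and con the highest. Ern1 fell by 0.41 ± 0.073 (adjusted p = 1.49e-05) in LSF against BSF and was 0.34 ± 0.074 higher in DSF than in LSF (adjusted p = 0.00048). Ppp1r15a, whose GADD34 product recruits a phosphatase to restart translation, stood at 20.6 and 17.3 CPM in BSF, 34.2, 36 and 37.2 in LSF, 36.9 and 36.5 in DSF, 20.4, 18.8 and 19.7 in BSF_C, and 117, 115 and 131 in con. LSF and DSF overlapped each other, above the BSF and BSF_C libraries and far below con. Against BSF it was higher by 0.93 ± 0.11 (adjusted p = 2.36e-09) in LSF and by 0.96 ± 0.12 (adjusted p = 1.81e-08) in DSF.

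Xbp1, the factor made active by that splicing, stood at 329 and 328 CPM in BSF, 365, 358 and 353 in LSF, 327 and 319 in DSF, 337, 352 and 332 in BSF_C, and 565, 576 and 687 in con. Counts per gene do not separate spliced from unspliced Xbp1. LSF lay above the other groups outside con, by 0.12 (95% interval 0 to 0.249) against BSF, which missed the threshold (adjusted p = 0.128). This value passed with only the groups compared (adjusted p = 0.00915) or con left out of the fit (0.0138). DSF against LSF, -0.15, also missed it (adjusted p = 0.103). That value passed with only the groups compared (0.00131), con left out of the fit (0.00518) or GC and length trends removed (0.0118). Atf6, the sensor cut in the Golgi to release its own transcription factor, stood at 79.4 and 71.1 CPM in BSF, 79.5, 79.8 and 72.2 in LSF, 75.6 and 76.8 in DSF, 75.8, 76.1 and 76.9 in BSF_C, and 106, 119 and 101 in con. The 4 groups outside con overlapped. Eif2ak3 (PERK), which slows translation, stood at 32.3 and 33.8 CPM in BSF, 31.9, 29.8 and 33.2 in LSF, 26.5 and 28.8 in DSF, 29.7, 31.7 and 32.1 in BSF_C, and 28.3, 28.7 and 34.6 in con. DSF was at the low end and overlapped con, and no comparison of Eif2ak3 passed the threshold. Ern2 (IRE1β), the sensor form of mucus-making epithelium, ranged from 14.6 to 19.7 CPM outside con and passed no threshold there.

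**Figure D4:**
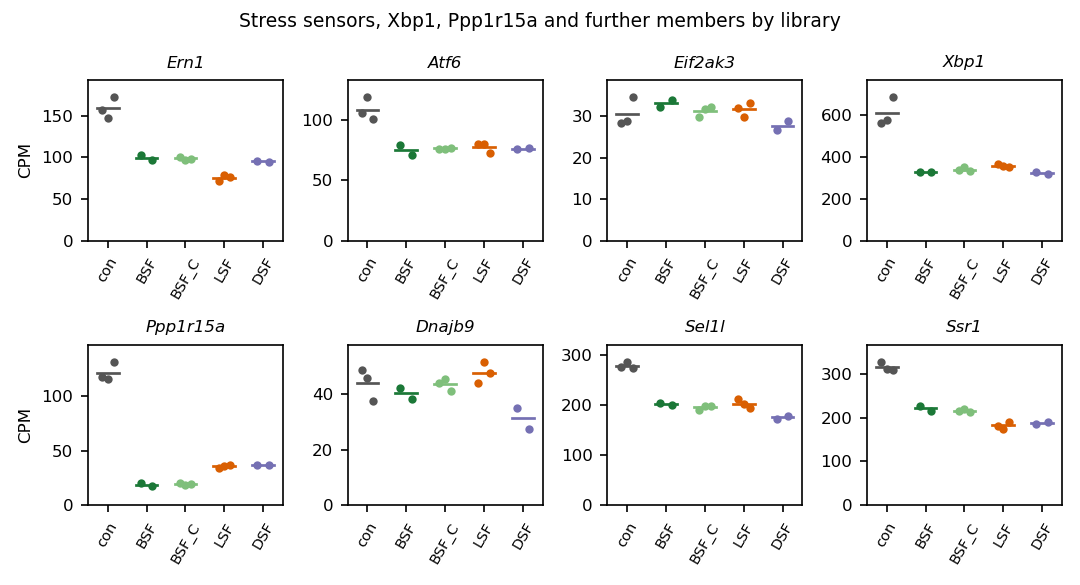
CPM of Ern1, Atf6, Eif2ak3, Xbp1, Ppp1r15a, Dnajb9, Sel1l and Ssr1 in every library (points) with the group mean (line), each axis starting at 0. Ppp1r15a lies between 115 and 131 in con, 17.3 and 20.6 in BSF and BSF_C and 34.2 and 37.2 in LSF and DSF.

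Of the translocon genes, Ssr1 encodes a subunit of the complex that helps signal peptides into the channel. It stood at 227 and 216 CPM in BSF, 182, 175 and 190.3 in LSF, 185 and 189.7 in DSF, 214, 219 and 213 in BSF_C, and 327, 312 and 308 in con. LSF and DSF overlapped each other below all other libraries. Ssr1 fell by 0.28 ± 0.061 (adjusted p = 0.000277) in LSF and by 0.24 ± 0.067 (adjusted p = 0.0108) in DSF against BSF. Sec61a1, the channel pore, stood at 443 and 412 CPM in BSF, 400.3, 403 and 389.9 in LSF, 435 and 439 in DSF, 469, 434 and 427 in BSF_C, and 858, 804 and 967 in con. LSF was the lowest group, and its change against BSF, -0.10, missed the threshold (adjusted p = 0.203). The change passed with library totals alone (adjusted p = 0.00641), only the groups compared (0.0286) or con left out of the fit (0.0487). It also passed with GC and length trends removed (0.0198) or BSF_C in place of BSF (0.0216). Sec61b was low, at 3.19 to 5.65 CPM outside con, and passed no threshold there.

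Set against the motif, 6 of the 9 genes with ERSE were lower in LSF than in BSF and 0 higher, with a median of -0.44, while of the 16 genes with neither motif 5 were lower and 2 higher, with a median of -0.077. The 6 were Hspa5, Hsp90b1, Calr, Canx, Pdia6 and Dnajc3. Of the genes with neither motif, Pdia3, Pdia4 and Sdf2l1 fell by 0.52, 0.58 and 0.65. The 2 genes with ERSE-II split, with Herpud1 higher and Dnajb11 lower. Among the 8 genes with no window, 2 were lower and 1 higher in LSF than in BSF (median 0.043). In DSF against BSF, 2 of the 9 were lower (median -0.189), against 3 of the 16 (median -0.169). In DSF against LSF, 4 of the 9 were higher and 0 lower (median 0.257), against 4 of the 16 higher and 3 lower (median -0.057). The shares over all genes tested were 13.4% lower and 15.9% higher in LSF against BSF. They were 5.77% and 6.26% in DSF against BSF, and 8.97% and 6.91% in DSF against LSF. The counts by motif are a description and were not tested.

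Cell-type markers moved in the same comparisons. The Paneth list (9 of 10 genes in the table) summed to 1820 to 1950 CPM in BSF and BSF_C, 1390 to 1470 in LSF and 1610 to 1670 in DSF. The goblet list (10 of 10) summed to 5690 to 6050, 6960 to 7150 and 5110 to 5400 CPM, the enterocyte list (10 of 10) to 27500 to 29800, 32900 to 33700 and 22200 to 22700 CPM, and the stem cell list (7 of 7) to 2200 to 2350, 1710 to 1730 and 2200 to 2220 CPM, in the same order. The T cell and intraepithelial lymphocyte list (9 of 10) summed to 192 to 229 CPM in BSF and BSF_C, 289 to 300 in LSF and 304 to 311 in DSF. The sums do not describe every gene: in DSF against BSF, 4 of 10 enterocyte genes were lower, among them Apoa4 (14000 to 9380 CPM) and Apoa1 (6740 to 5390 CPM), and 1, Anpep, was higher. In LSF against BSF, 7 of the 10 were higher and 1 lower, 3 of 9 tested goblet genes were higher and 2 lower, 6 of 8 Paneth genes and 4 of 7 stem cell genes were lower and 0 higher, and 5 of 9 T cell genes were higher and 1 lower. No gene of these 5 lists averaged 0 in these 4 groups. The plasma cell and B cell list did not separate these groups (144 to 165 CPM), and Tnfrsf17, a defining plasma cell gene, had no count in any library. The fibroblast list summed to 11.5 to 12.1 CPM in BSF, 18 to 36.2 in BSF_C, 28.4 to 54.5 in LSF and 28.5 to 37.5 in DSF. Of its 7 genes, 6 were higher and 0 lower than BSF in both LSF and DSF. Of 7 tested macrophage and dendritic cell genes, 4 were higher in LSF and 3 in DSF against BSF, and 0 lower. The part of cell composition in the differences between feeding windows was not tested.

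Other genes of the same pathways, from lists kept apart from the 35, were counted in the same way. The shares of all genes tested, given above for each comparison, stand beside these counts too. Among 33 tested ER folding and disulfide genes, 10 were lower and 2 higher in LSF than in BSF, and among 34 translocon, signal peptidase and glycosylation genes 12 were lower and 0 higher. Mogs, the glucosidase that trims the first glucose from new glycans, averaged 334 CPM in con, 235 in BSF, 157 in LSF and 195 in DSF, and fell by 0.58 ± 0.066 in LSF against BSF (adjusted p = 5.21e-10). The oxidoreductase gene Agr2, which also stands in the goblet list, fell by 0.51 (adjusted p = 3.7e-05), and Rpn1, a subunit of the oligosaccharyltransferase, fell by 0.31 (adjusted p = 0.000408) and was 0.41 higher in DSF than in LSF (adjusted p = 5.96e-06). In DSF against BSF, 4 of the 33 were lower and 2 higher, and 1 of the 34 was lower, Hspa13 (-0.34, adjusted p = 0.0208). In DSF against LSF, 4 of the 33 and 6 of the 34 were higher and 0 lower.

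The other degradation genes gave 5 higher and 2 lower of 27 in LSF against BSF, with Os9, a lectin that hands glycoproteins to the ligase, at 0.30 (adjusted p = 0.00033) and the ATPase Vcp at -0.22 (adjusted p = 0.00244). Of 28 other signalling genes, 8 were higher and 1 lower in LSF against BSF. For these 28, DSF gave 3 higher and 1 lower against BSF, and 1 higher and 8 lower against LSF. For the 27 degradation genes, DSF gave 2 higher and 0 lower against BSF, and 1 higher and 2 lower against LSF. Atf3, a stress-induced transcription factor, averaged 38.9 CPM in BSF, 91.5 in LSF, 90.1 in DSF, 42 in BSF_C, and 326 in con. It was higher by 1.24 ± 0.081 (adjusted p = 1.98e-18) in LSF and by 1.21 ± 0.087 (adjusted p = 3e-16) in DSF against BSF. Creb3l3, an ER-bound transcription factor of liver and small intestine tied to lipid metabolism, averaged 224 CPM in BSF, 333 in LSF, 198 in DSF, 236 in BSF_C, and 105 in con. It was 0.57 ± 0.061 higher in LSF than in BSF (adjusted p = 6.97e-11) and lower in DSF than in LSF (-0.75 ± 0.062, adjusted p = 1.32e-14).

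Each group was also set against con, where most genes tested differed. BSF gave 13 of the 35 genes higher and 13 lower, where 70.2% of all genes tested were called (38.3% higher, 31.9% lower). BSF_C gave 13 higher and 14 lower against 73.03% of all genes (39.8% higher, 33.2% lower), LSF 11 higher and 14 lower against 71.98% (38.9% higher, 33.03% lower), and DSF 11 higher and 16 lower against 67.7% (36.6% higher, 31.1% lower). The share of the 35 that was called, 71.4% to 77.1%, was thus near that of all genes. Medians were 0.048, 0.036, -0.053 and -0.162, beside 0.111, 0.119, 0.1 and 0.101 over all genes. Scaled by library totals alone, the calls were 16 higher and 10 lower in both BSF and BSF_C, 61.5% higher in place of 50% and 48.1%. They were 14 and 13 in LSF (51.9% higher in place of 44%) and 13 and 14 in DSF (48.1% in place of 40.7%), and the medians of all genes moved to 0.287, 0.284, 0.199 and 0.259. The 4 comparisons share the con libraries.

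In the 4 comparisons with con, 31.1% to 33.2% of all genes tested were lower and 36.6% to 39.8% higher. By role, the sensors and signalling genes gave 0 higher in any of the 4 groups and 5, 5, 4 and 5 of 6 that were lower in BSF, BSF_C, LSF and DSF. Ppp1r15a fell by 2.68 ± 0.10, 2.62 ± 0.089, 1.76 ± 0.082 and 1.72 ± 0.093 in that order (adjusted p = 8.72e-30, 1.93e-32, 2.99e-26 and 4.65e-23). In the same order, Xbp1 fell by 0.89, 0.84, 0.76 and 0.91, Ern1 by 0.67, 0.69, 1.08 and 0.74, and Atf6 by 0.53, 0.51, 0.49 and 0.51. Ern2 was lower in BSF, BSF_C and DSF (-0.46, -0.40 and -0.50) but in none of them once con replicate 2 was left out (adjusted p = 0.0857, 0.127 and 0.0607), nor in BSF without BSF replicate 2 (adjusted p = 0.101), nor in BSF and BSF_C with library totals alone (-0.287 and -0.237). In LSF its value was -0.15.

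The folding enzymes split. Hsp90b1 was higher than con by 1.73 ± 0.088, 1.76 ± 0.081, 1.31 ± 0.084 and 1.72 ± 0.088 in BSF, BSF_C, LSF and DSF (adjusted p = 2.01e-24, 3.33e-26, 2.56e-20 and 4.13e-24). Pdia3 was higher by 1.63, 1.68, 1.11 and 1.67, Pdia6 by 1.02, 1.01, 0.35 and 1.09, Sdf2l1 by 1.10, 1.19, 0.45 and 0.79, Dnajc3 by 0.87, 0.87, 0.42 and 0.53, and Hspa5 by 0.72, 0.71, 0.28 and 0.34. Pdia6 in LSF was not called without con replicate 3 (0.24, adjusted p = 0.0593). With GC and length trends removed, Sdf2l1 in LSF was 0.046 above con and not called. The opposite direction was taken by Pdia4 (-0.52, -0.55, -1.10 and -0.76), Manf (-0.77, -0.77, -1.11 and -0.93), Canx (-0.28, -0.25, -0.66 and -0.31) and Hyou1 (-0.16, -0.15, -0.71 and -0.63). The Canx and Hyou1 changes in BSF and BSF_C depended on the scaling: scaled by library totals alone, Canx was not called (-0.10 and -0.082) and Hyou1 was at 0.015 and 0.02, and Hyou1 was not called without con replicate 3 (-0.073 and -0.06), in BSF without either BSF library (adjusted p = 0.0609 and 0.1) and in BSF_C without BSF_C replicate 2 (adjusted p = 0.0888).

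Calr was higher than con in BSF, BSF_C and DSF (0.22, 0.26 and 0.21, adjusted p = 0.000383, 6.52e-06 and 0.000687) and lower in LSF (-0.31, adjusted p = 1.94e-07). P4hb was higher by 0.39, 0.43, 0.64 and 0.39 and Ero1lb by 0.66, 0.68, 0.74 and 0.32, the last not called without con replicate 1 or the DSF library S3 (adjusted p = 0.235 and 0.204), nor by the Wald test (0.0658), with only the groups compared (0.0535), with thinned libraries (0.0664) or with GC and length trends removed (0.11). Among degradation genes, Edem1, which draws misfolded glycoproteins out of the folding cycle, was higher by 0.37, 0.36, 0.28 and 0.22, the DSF value not called without the library S3 (adjusted p = 0.0592). Derl1 was lower (-0.62, -0.57, -0.43 and -0.58), as was Sel1l (-0.47, -0.51, -0.46 and -0.67). Herpud1 was called in LSF (0.56, adjusted p = 1.74e-08) and its value was 0.15 in BSF, 0.14 in BSF_C and -0.0988 in DSF. With library totals alone it was called in BSF (0.321) and BSF_C (0.304) too. Dnajb9 was lower in DSF (-0.50, adjusted p = 0.000176), with no call elsewhere. With GC and length trends removed it was lower in BSF (-0.678, adjusted p = 9.6e-08), BSF_C (-0.526, adjusted p = 1.98e-06) and LSF (-0.328, adjusted p = 0.00151) as well. In the translocon, Sec61a1 fell by 1.03, 0.98, 1.14 and 1.00 and Ssr1 by 0.51, 0.55, 0.79 and 0.75. Annotated genes on the opposite strand overlap 549 exonic bases of Sec61a1 and 312 of Manf.

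The remaining calls against con were small or rested on few libraries. Dnajb11 was higher in BSF (0.41), BSF_C (0.52) and DSF (0.25, not called without the library S3, adjusted p = 0.368). Creld2 was higher in BSF (0.61), BSF_C (0.82) and LSF (0.42), the LSF call lost without any 1 of con replicates 1 and 3 and LSF replicates 1 and 2 (adjusted p = 0.0636 to 0.242) and under 6 other alternatives (0.139 with GC and length trends removed). The BSF call was lost with thinned libraries (0.409, adjusted p = 0.0934) and when trends of GC and length were taken out (0.354, adjusted p = 0.109). Sec61b was higher in BSF (0.75) and BSF_C (0.88), the BSF call lost without con replicate 1 or 2 or either BSF library (adjusted p = 0.0558 to 0.116) or by the Wald test (0.0673). With GC and length trends removed neither was called (0.42 and 0.508, adjusted p = 0.227 and 0.104). Derl2 was lower in LSF (-0.20, lost without con replicate 1 or 2 or LSF replicate 1 or 2, adjusted p = 0.0611 to 0.144) and in DSF (-0.28, lost without the library S2, adjusted p = 0.0578). With library totals alone both Derl2 calls were lost (-0.105 and -0.123). Syvn1 was lower in DSF (-0.16, lost without con replicate 1 or either DSF library, adjusted p = 0.0895 to 0.151), and its value was -0.004 with library totals alone. Sil1 was lower in BSF_C (-0.41, lost without con replicate 1 or BSF_C replicate 1 or 2, adjusted p = 0.0656 to 0.726) and was not called under 6 other alternatives (adjusted p = 0.0522 to 0.227). Derl3, Edem2, Eif2ak3 and Selenos passed the threshold in none of the 8 comparisons as reported. Against con with GC and length trends removed, Eif2ak3 was called higher in BSF (0.324), BSF_C (0.23) and LSF (0.244), Edem2 higher in BSF_C (0.293) and LSF (0.248), and Selenos lower in BSF_C (-0.353). With library totals alone, Eif2ak3 was called in BSF (0.297) and Edem2 in BSF_C (0.342) and LSF (0.237), and Edem2 was called in both without con replicate 3 (0.315 and 0.277).

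**Figure D5:**
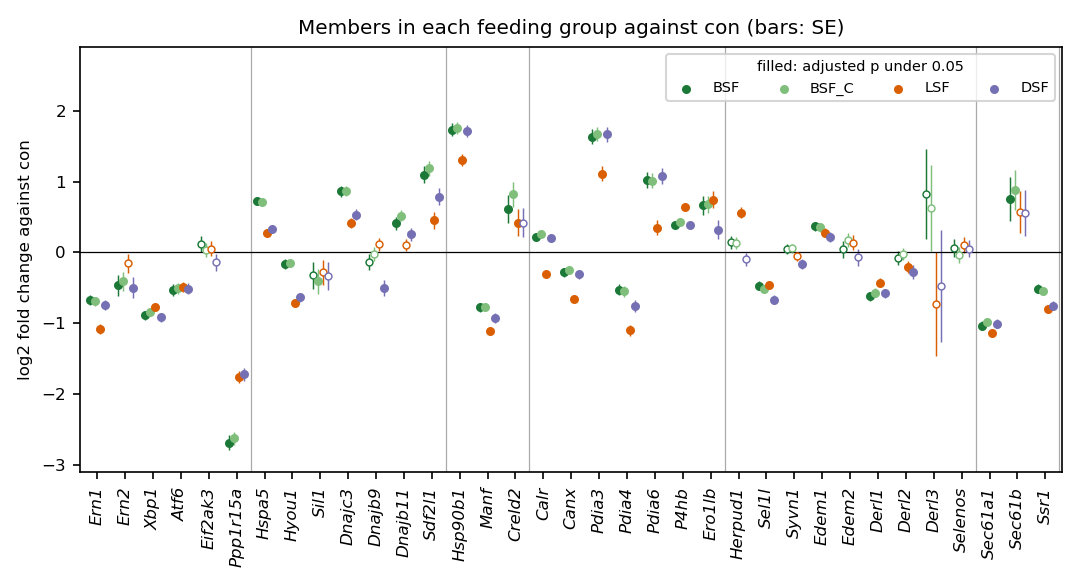
Log2 fold change of each gene in BSF, BSF_C, LSF and DSF against con, with bars of 1 SE and filled points where the adjusted p is under 0.05, ordered by role. Ppp1r15a is lowest, at -2.68 to -1.72, and Hsp90b1 highest, at 1.31 to 1.76; Calr alone is called on both sides of 0, higher in BSF, BSF_C and DSF and lower in LSF.

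Cell-type markers differed most between con and the rest, and their part in these differences was not tested. The enterocyte list summed to 5030 to 5730 CPM in con against 22200 to 33700 elsewhere, the Paneth list to 340 to 390 against 1390 to 1950, the goblet list to 7630 to 8920 against 5110 to 7150, and the stem cell list to 3590 to 3750 against 1710 to 2350. The goblet sum was carried by Fcgbp, at 7380 CPM in con and 3980 to 5390 elsewhere. Of 9 goblet genes tested, 5, 7, 6 and 6 were higher than con in BSF, BSF_C, LSF and DSF and 2 lower in each, with Zg16 at 317 CPM in con and 696 to 1030 elsewhere. Ascl2 of the stem cell list was higher than con in each group, and 5 or 6 of the 7 genes were lower. The skin keratinocyte list (10 of 10) summed to 595 to 699 CPM in con against 4.17 to 6.2 elsewhere, where Calm4 and Krtdap were at 0. The plasma cell and B cell list (9 of 12) summed to 264 to 305 CPM in con against 144 to 165. Nearly all of it came from Sdc1, which epithelium also expresses, and Tnfrsf17 was at 0 throughout. Jchain was higher than con in each group, at 0.0768 CPM in con and 2.27 to 7.72 elsewhere. Of 6 genes tested in that list, 1, 2, 2 and 1 were higher in BSF, BSF_C, LSF and DSF, and 2, 1, 1 and 1 lower. In con, Defa22 of the Paneth list and Cd3g and Cd8b1 of the T cell list were at 0. The T cell list summed to 84.5 to 92.1 CPM in con against 192 to 311 elsewhere. In con nearly all of it was Itgae, at 85.9 CPM on average and 39.6 to 46.9 elsewhere. Of 9 genes tested in that list, 8 were higher than con in each group and 1, Itgae, was lower. Of the other pathway lists, Atf3 was lower than con in all 4 groups (-3.07, -2.96, -1.83 and -1.85), as was Txndc5, a disulfide isomerase (-1.01, -1.04, -1.02 and -1.07). Creb3l3 was higher (1.10, 1.17, 1.67 and 0.92).

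The pathway lists as a whole gave, for genes higher and lower against con, 11 and 8, 9 and 10, 10 and 10, and 10 and 9 of the 33 folding and disulfide genes in BSF, BSF_C, LSF and DSF. The 27 degradation genes gave 11 and 8, 10 and 8, 13 and 9, and 14 and 9 in that order, the 34 translocon and glycosylation genes 18 and 8, 18 and 10, 16 and 9, and 17 and 8, and the 28 signalling genes 7 and 12, 7 and 12, 8 and 9, and 8 and 10. Of further cell types, the enteroendocrine list (10 genes in the table) summed to 450 to 461 CPM in con and 399 to 501 elsewhere, the tuft list (8) to 72.5 to 81.8 and 63.9 to 95.6, the macrophage and dendritic cell list (8) to 216 to 236 and 139 to 172, the fibroblast list (7) to 0.208 to 1.45 and 11.5 to 54.5, and the pancreatic acinar list (9) to 18.8 to 33.7 over all libraries. The enteroendocrine sum was carried by Chgb, at 340 CPM in con and 224 to 285 elsewhere. Trpm5 carried the tuft sum, at 63.6 CPM in con and 41.9 to 54.5 elsewhere. Of 10 enteroendocrine genes tested, 5, 5, 5 and 4 were higher than con in BSF, BSF_C, LSF and DSF, and 1 lower in each. Of 6 tuft genes tested, 3 were higher in each, and 1, 1, 2 and 2 lower in that order. The macrophage and dendritic cell sum was carried by Cx3cr1, at 172 CPM in con and 109 to 123 elsewhere. Of 7 genes tested in that list, 4 were lower than con and 3 higher in each group, the latter being Itgax, Lyz2 (0.361 CPM in con, 3.05 to 6.67 elsewhere) and C1qa (at 0 in con, 0.659 to 3.09 CPM elsewhere).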

How the data were processed

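Polyadenylated RNA of sorted jejunal epithelial cells was sequenced in 13 libraries, grouped by the labels into con (3), BSF (2), BSF_C (3), LSF (3) and DSF (2). The authors deposited 1 table of unnormalized counts, whole numbers for each gene symbol. Per the submitters' processing notes, STAR 2.7.2e, cutadapt 2.9, FastQC 0.11.8 and DESeq2 1.32.0 were used with builds GRCm38 and mm10. Annotation, strand setting and multi-mapping rule are not given in the sources used here. The DSF columns are marked S2 and S3 where the labels number replicates 1 and 2, so they carry no replicate number. The 35 genes, the gene lists and the motifs were chosen with earlier results of these data known.

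Genes were kept by edgeR's filterByExpr (14300 of 21868, 99.91% of counts), scaled by trimmed means and tested, two-sided, with the quasi-likelihood test of edgeR 4.0.16 (R 4.3.3). A single model held the 13 libraries and no covariate besides group, which left 8 residual degrees of freedom. The test also drew each gene's spread toward that of all genes, so p-values and intervals use more than these 8. P-values were adjusted by Benjamini-Hochberg over these 14300 genes, and genes under 0.05 were called. The SE is the log2 fold change over the square root of F, and the 95% interval follows from it. Precision comes from this shared spread and from 4851239 to 8589351 counts a library. Exon lengths are the union of exons in GENCODE M21, which matched 99.2% of symbols. Promoters are RefSeq's, on GRCm38.p6. Genes with values in every library are those called in a comparison without con, those among the 6 smallest p-values of the 35 against con, and Ern1, Atf6, Eif2ak3 and Xbp1. Other pathway genes are up to 3 called with the smallest p per list and comparison. The procedure was tested on simulated data. Same-numbered libraries did not deviate together (correlations -0.095 to 0.048), so the numbers were not taken to pair libraries.

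Alternatives were DESeq2 1.42.0 (its size factors, and its Wald test), voom in limma 3.58.1, library totals alone, no filter, only the groups compared, a replicate block, libraries thinned to 4851239 counts and each library left out. Added after seeing the data were con left out of the fit, trends of GC content and length removed (lowess, span 0.3, both known for 99.6% of genes tested) and BSF_C in place of BSF.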

Additional observations from a re-analysis of the deposited data

Results flagged for a closer look

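Calr, the calreticulin gene, was the only one of the 35 genes called on opposite sides of con in different feeding groups: higher in BSF, BSF_C and DSF and lower in LSF, with every LSF library (645 to 671 CPM) below every con library (771 to 877 CPM). The difference itself was tested within the same fit, at -0.53 for LSF against BSF (adjusted p = 1.63e-11) and at 0.52 for DSF against LSF (adjusted p = 3.04e-11) with edgeR and Benjamini-Hochberg adjustment. Groups held 2 or 3 libraries, too few for a check of single libraries against their group.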

How the results depend on the processing

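Calls that held under every alternative run were 16 of 18 for LSF against BSF, 3 of 7 for DSF against BSF (Hspa5, Hyou1 and Ppp1r15a), 9 of 14 for DSF against LSF, and 21 of 26, 22 of 27, 21 of 25 and 21 of 27 for BSF, BSF_C, LSF and DSF against con. The count of lower genes in DSF against BSF, 6 as reported, was 12 with only the groups compared, 13 with con left out of the fit and 3 with thinned libraries; the cause was not tested, beyond the smaller totals of thinned libraries. Under at least 1 alternative, some genes gained a call with the sign of the reported value. In LSF against BSF they were 7 (Creld2, Derl3, Dnajb9, Edem1, Sec61a1, Syvn1 and Xbp1). In DSF against BSF they were 8 (Dnajb11, Edem1, Ero1lb, Herpud1, Manf, Pdia4, Sdf2l1 and Syvn1), and in DSF against LSF 3 (Derl1, Sec61a1 and Xbp1). Against con they were 6, 7, 5 and 3 in BSF, BSF_C, LSF and DSF. Dnajb9 in LSF against con gained a call with its sign reversed and is not among the 5. With BSF_C in place of BSF, 3 genes were higher and 16 lower in LSF, and 1 higher and 9 lower in DSF. Reversed in sign were Hyou1 in BSF against con (0.015 with library totals alone, 0.064 with GC and length trends removed), Hyou1 in BSF_C against con (0.02 and 0.066) and Dnajb9 in LSF against con (-0.328 with GC and length trends removed); the cause was not tested.

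Leaving out 1 library gave, for genes higher and then lower, 12 to 13 and 11 to 13 in BSF against con, 13 to 14 and 12 to 14 in BSF_C against con, 10 to 12 and 13 to 15 in LSF against con, and 8 to 12 and 14 to 17 in DSF against con. It gave 3 to 4 and 13 to 15 in LSF against BSF, 1 and 2 to 4 in DSF against BSF (2 without BSF replicate 1, 3 without the DSF library S3), 7 to 9 and 3 to 5 in DSF against LSF (3 without the DSF library S2), and 0 and 0 in BSF_C against BSF. Where a group of 2 lost a library, the remaining one was assumed to vary like the other groups. With the replicate number as a block, counts were 13 and 12 for BSF, 13 and 14 for BSF_C and 10 and 14 for LSF against con, 0 and 0 for BSF_C against BSF and 4 and 14 for LSF against BSF. Correlations between libraries of the same number ran from -0.095 to 0.048 and of different numbers from -0.063 to 0.085. No block could be fitted for DSF, whose columns carry no replicate number. Derl3, with 1 to 13 counts a library, and Sec61b are limited by depth.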
